A study of Mus musculus with 2 samples.

Results

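The cells described here were interferon-response monocytes with little C1q, found among mouse immune cells of 143B tumors. They were chosen by measured values: a barcode with at least 500 UMIs (unique molecular identifiers, each standing for 1 captured RNA molecule), over 200 and under 6000 genes and under 5% mitochondrial UMIs was a member when Ifit2, Ifit3 and Cmpk2 together made up at least 0.1% of its UMIs, Csf1r had at least 1 UMI, the C1q genes C1qa, C1qb and C1qc made up less than 0.1%, S100a8 and S100a9 made up less than 2%, and Flt3 had 0 UMIs. There were 240 members among 19826 filtered barcodes. The same rule without its interferon part defined a gate of Csf1r-positive cells, and the gate cells that did not reach 0.1% are called the other gate cells below.

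143B is a human osteosarcoma line, here grown as tumors in female nude mice, which lack mature T cells. CD45-positive cells were isolated with magnetic beads from a set of 3 tumors of mice given the control IgG, a human IgG1 isotype antibody, and from a set of 3 tumors of mice given the anti-CD3L1 antibody (CD3L1 is also named ITPRIPL1, a ligand of NRP2 on macrophages); both antibodies were given at the same dose on the same schedule. Each set gave 1 droplet library, so each treatment is 1 sample, the 3 tumors of a set are not told apart, and no test between treatments was possible. Intervals below are exact 95% intervals for counting error only, and a difference between libraries cannot be told apart from a difference between the sets of tumors or between the preparations.

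Type I interferons bind the receptor Ifnar1/Ifnar2, the kinases Jak1 and Tyk2 pass the signal on by phosphorylation, and a complex that includes Stat2 and Irf9 binds the interferon-stimulated response element (ISRE) before a large set of genes. The products of these genes block viral RNA and protein synthesis, tag proteins with Isg15, sense nucleic acids and attract lymphocytes, and Usp18 and Socs1 dampen the signal. Monocytes that enter tumors carry Ly6c2, Ccr2 and Plac8 and give rise to macrophages, which can express C1q.

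Genes with at least 50 CPM in the members of both libraries were ranked by the smaller of their 2 ratios of members over other gate cells. Of the 15 that ranked highest, 13 had a promoter window and 9 of these held the core of this element. The starts of 5 genes with a match are printed to show it before genes of different families: Ifit3 is a rule gene, and Ifit1, Rsad2, Cxcl10 and Ifi206 are not. The windows are the 250 bases before the start in RefSeq on GRCm38.p6, each written along the strand of its gene, and capitals mark the core GAAANNGAAA or its reverse complement TTTCNNTTTC, the only motif searched. Ifit3 (chr19:34583279-34583528, plus strand) and Ifit1 (chr19:34640639-34640888, plus strand) hold 2 matches each, with first bases 156 and 122 bases before the start of Ifit3 and 104 and 85 bases before that of Ifit1. Rsad2 (chr12:26456453-26456702, minus strand), Cxcl10 (chr5:92348890-92349139, minus strand) and Ifi206 (chr1:173491319-173491568, minus strand) hold 1 match each, 120, 213 and 40 bases before the start.
Ifit3: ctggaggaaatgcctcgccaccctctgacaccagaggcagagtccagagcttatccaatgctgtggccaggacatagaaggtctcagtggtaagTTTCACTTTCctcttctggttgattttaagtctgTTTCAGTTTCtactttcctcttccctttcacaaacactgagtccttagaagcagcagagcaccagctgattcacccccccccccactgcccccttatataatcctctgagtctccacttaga
Ifit1: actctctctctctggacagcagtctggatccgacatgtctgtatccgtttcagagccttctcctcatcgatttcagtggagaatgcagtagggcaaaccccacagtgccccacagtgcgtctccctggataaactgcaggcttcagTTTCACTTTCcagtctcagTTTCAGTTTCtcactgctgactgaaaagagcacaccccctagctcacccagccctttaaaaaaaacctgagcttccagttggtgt
Rsad2: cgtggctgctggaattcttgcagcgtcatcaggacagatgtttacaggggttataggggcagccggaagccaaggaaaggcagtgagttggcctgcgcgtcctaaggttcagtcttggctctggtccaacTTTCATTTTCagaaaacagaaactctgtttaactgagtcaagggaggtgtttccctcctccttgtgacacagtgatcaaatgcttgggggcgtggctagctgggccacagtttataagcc
Cxcl10: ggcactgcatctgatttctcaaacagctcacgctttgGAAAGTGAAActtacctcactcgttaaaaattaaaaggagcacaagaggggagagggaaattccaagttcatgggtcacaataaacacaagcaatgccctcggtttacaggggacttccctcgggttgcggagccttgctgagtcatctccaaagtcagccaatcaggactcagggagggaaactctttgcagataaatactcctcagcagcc
Ifi206: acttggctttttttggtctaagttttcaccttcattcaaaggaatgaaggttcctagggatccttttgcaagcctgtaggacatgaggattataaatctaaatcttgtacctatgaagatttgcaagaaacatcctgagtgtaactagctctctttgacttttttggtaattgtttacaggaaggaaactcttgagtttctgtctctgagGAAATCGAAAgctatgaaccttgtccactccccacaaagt

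Over the whole table, 3.99% of 27025 genes held a match in any of their windows, which also take in 50 bases after the start. Of the 200 genes described below as at least 2-fold above the other gate cells, 162 had a window and 51 of these, or 31.5%, held a match, against 6.19% of the 2521 tested genes with a window. No match was found for Ifit2, Cmpk2, Herc6 or Gm5431, the other 4 of the 13, and a match is a description of letters, not a site of binding.

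The control IgG library held 57 members among 8557 filtered barcodes, or 0.666% (0.505 to 0.862). The anti-CD3L1 library held 183 among 11269, or 1.62% (1.40 to 1.88). Of the gate cells, members were 57 of 1729 in the control, or 3.30% (2.51 to 4.25), and 183 of 3943 after anti-CD3L1, or 4.64% (4.01 to 5.35). The intervals of the first pair were apart and those of the second overlapped, and the gate itself took 20.2% of control barcodes and 35.0% of anti-CD3L1 barcodes. The control library was mostly S100a8/S100a9-high cells, 5765 of 8557 barcodes against 515 of 11269, so the share of all barcodes moves with that class, whose part in it was not tested.

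The same interferon threshold picked cells in other classes too. Among Csf1r-positive cells at or above the C1q limit it picked 16 of 347 in the control (4.61%, 2.66 to 7.38) and 105 of 3124 after anti-CD3L1 (3.36%, 2.76 to 4.05). Among S100a8/S100a9-high cells it picked 59 of 5765 (1.02%, 0.780 to 1.32) and 30 of 515 (5.83%, 3.96 to 8.21). Of the remaining barcodes, outside these classes and the gate, it picked 26 of 716 (3.63%, 2.39 to 5.28) and 130 of 3687 (3.53%, 2.95 to 4.17). The intervals of the 2 libraries overlapped for the C1q-high cells and the remaining barcodes and were apart for the S100a8/S100a9-high cells. Members were 36.1% of the 158 interferon-high barcodes of the control and 40.8% of the 448 after anti-CD3L1, and the remaining barcodes were 16.5% and 29.0% of them.

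**Figure D1:**
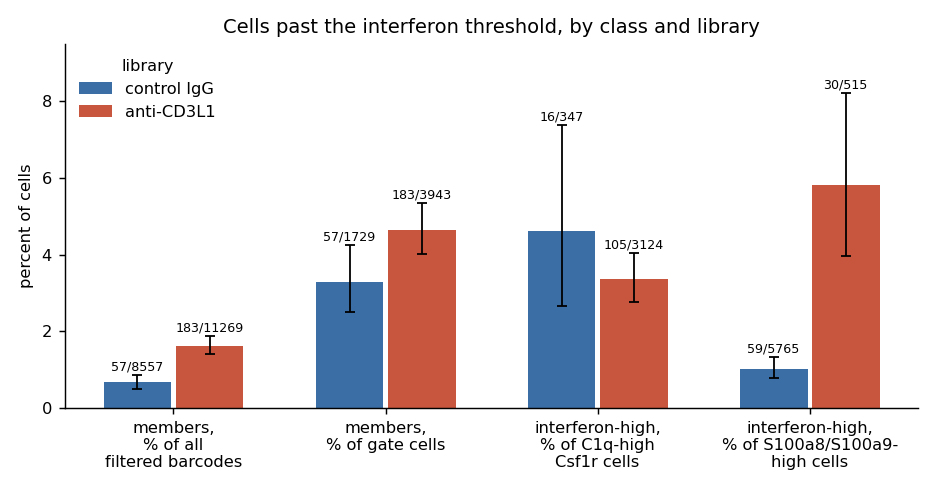
Percent of cells past the interferon threshold in each class shown (horizontal axis), with bars for the control IgG and anti-CD3L1 libraries, exact 95% binomial intervals and the counts above them. The class of remaining barcodes is not drawn. Members made up 3.30% and 4.64% of gate cells with overlapping intervals, and 0.666% and 1.62% of all filtered barcodes with intervals apart.

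Members had a median of 12022 UMIs in the control and 7853 after anti-CD3L1, close to 12370 and 8310 in the other gate cells, and their summed counts were 630862 and 1502969 UMIs. Levels below are CPM, the UMIs of a gene per 1000000 UMIs of these sums. The rule genes rested on a median of 19 and 13 UMIs per member, and 1 control and 3 anti-CD3L1 members had fewer than 3. The libraries shared 26 filtered barcodes, and 0 of them were members.

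The threshold ran through a continuum. In the control, 16 gate cells lay between 0.08% and 0.1% and 13 between 0.1% and 0.12%, and after anti-CD3L1 these were 52 and 41 cells. Isg15 stood at 3048 CPM just below and 3843 CPM just above the limit in the control, and at 2310 and 2419 CPM after anti-CD3L1. Rsad2 stood at 3921 below and 3190 above in the control, and at 2521 and 2261 after anti-CD3L1. Neither gene thus differed by 2-fold across the limit, and other genes were not compared there.

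The label was checked against marker lists. The bead marker Ptprc (CD45) was at 751 and 788 CPM in the members of the control and anti-CD3L1 libraries. Of the classical monocyte list, all 14 genes were detected in both, among them Lyz2, a lysozyme of myeloid cells, at 6678 and 7012 CPM, Plac8 at 4673 and 2574, Ly6c2 at 1481 and 1269, and the chemokine receptor Ccr2 at 306 and 321. The 11 genes of the non-classical list summed to 821 and 830 CPM, with Gngt2 the most abundant after anti-CD3L1, at 149 and 272 CPM, and Ace and Spn low, at 1.59 and 12.6 CPM for Ace and 9.51 and 19.3 for Spn. Of this list 0 of 5 tested genes differed by 2-fold from the other gate cells in both libraries, which with so few genes is close to the shares over all genes given below, and its median log2 ratio to them was 0.01 in the control and -0.09 after anti-CD3L1. Macrophage genes were also present, with Apoe, a lipid carrier, at 1767 and 3039 CPM and Ms4a7 at 365 and 366. The data thus hold the label's monocyte markers together with some non-classical and macrophage genes. Barcodes of 10 to 100 UMIs, which hold mostly free RNA, also held macrophage RNA, with C1qa at 444 and 1557 CPM. The part of free RNA in the members' macrophage genes was not tested.

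Markers that define T cells, B cells and fibroblasts were mostly at or near 0, while some genes of the other lists were present. Of 9 T cell genes, 7 were at 0 in the control and 6 after anti-CD3L1, Cd3e, Cd4 and Cd8a in both, with 3.17 and 5.32 CPM in sum and Trbc1 the most abundant after anti-CD3L1. The B cell list summed to 34.9 and 40.6 CPM, mostly Ighm, with Cd79a and Pax5 at 0 in both. The fibroblast list summed to 19.0 and 10.7 CPM with Col1a1 and Pdgfra at 0, and the plasmacytoid dendritic cell markers Siglech and Ly6d were at 0, while Tcf4 and Bst2 of that list, which monocytes also express or which interferon induces, brought its sum to 1522 and 1005 CPM. Of 13 NK cell genes, 10 were at 0 in control members but only 3 after anti-CD3L1, namely Klrb1c, Klra8 and Klra4, which were at 0 in both. Klrk1 made up most of the list's sums of 106 and 172 CPM. In the control 10 of 57 members and 20 of 1672 other gate cells held at least 3 UMIs of the NK list, and after anti-CD3L1 16 of 183 and 164 of 3760 did. With any of 6 lists of other types, 33 of 57 and 88 of 183 members held at least 3 UMIs, 28 and 76 of them of the plasmacytoid list, as did 794 of 1672 and 1404 of 3760 other gate cells. The neutrophil list summed to 3609 and 1538 CPM in members and to 3190 and 924 CPM in the other gate cells, with Acod1 the most abundant in anti-CD3L1 members. These sums include S100a8 and S100a9, which the rule limits in both classes, and without them were 1970.3 and 953 CPM in members and 1313 and 648 CPM in the other gate cells. The part of these cells or RNAs in the values below was not tested.

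Against the other gate cells, the members held more RNA of many antiviral genes: 200 of 3150 genes (6.35%) were at least 2-fold higher in both libraries, among genes of at least 50 CPM in the members of both or in the other gate cells of both. Only 15 (0.476%) were at least 2-fold lower in both. With the rule applied to cells thinned to 1000 UMIs, 124 genes were higher. Members were selected on 3 interferon genes, so these ratios describe the selected cells and support nothing by themselves. The cells that the same threshold picked in other classes held these RNAs too. In the control, Rsad2 was at 5672 CPM in members, 2939 in the C1q-high and 5949 in the S100a8/S100a9-high interferon cells, and after anti-CD3L1 at 5626, 4064 and 8881. Cxcl10 was at 3727, 4340 and 3159 CPM in the control and at 2304, 1847 and 1328 after anti-CD3L1. The order of the 3 classes thus differed between genes, and all 3 stood far above the other gate cells for both genes. Of the 200 genes, 72 belonged to the 3 rule genes or to 5 lists of interferon targets, and 99 to any list used here. The median gene tested was slightly lower in members, at a log2 ratio of -0.16 in the control and -0.11 after anti-CD3L1.

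The rule genes were high by construction. Ifit2, which binds viral RNA, was at 889 CPM in members and 23.2 in other gate cells of the control, and at 998 and 34.8 after anti-CD3L1. Cmpk2, a mitochondrial nucleotide kinase that lies beside Rsad2 in the genome, was at 452 and 11.96 in the control and at 424 and 14.1 after anti-CD3L1. The remaining label markers were also higher in both libraries, with Ifi209 8.51-fold and 5.87-fold, Phf11d 11.3-fold and 6.0-fold, and Trim30d 11.4-fold and 5.66-fold above the other gate cells.

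Of the antiviral effectors, 38 of 40 listed symbols were in the files, 35 passed the level filter and 26 were at least 2-fold higher in both libraries. Over all tested genes the share was 6.35%. Rsad2 (viperin), which makes a chain-terminating nucleotide, was at 5672 CPM in control members against 249 in the other gate cells, and at 5626 against 383 after anti-CD3L1. Isg15, the ubiquitin-like tag, was at 4060 against 464 and at 3275 against 579. Ifit1, which binds RNA with a foreign cap, was 23.4-fold and 16.5-fold higher. These 3 genes were far above the other gate cells in both libraries, and the counting intervals of their log2 ratios, such as 4.45 to 4.57 and 3.84 to 3.92 for Rsad2, were narrow. Ifit3b and Ifit1bl1 ranked as high, at 28.03-fold and 30.7-fold and at 26.9-fold and 33.0-fold, but they resemble Ifit3 and Ifit1, with which they may share reads. Ifitm2, a membrane protein that blocks viral entry, differed little, at 1.14-fold and 1.18-fold.

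Of 4 other target families, most tested genes were at least 2-fold higher in both libraries, against 6.35% of all tested genes. Of the ISG15 conjugation and ubiquitin ligase list, 18 of 19 tested genes were at least 2-fold higher in both libraries, with Usp18, the protease that removes Isg15, at 21.6-fold and 10.8-fold and Herc6, the mouse Isg15 ligase, at 10.5-fold and 7.69-fold. Of the interferon-induced GTPases, which attack the vacuoles of intracellular microbes, 11 of 11 were higher, with Iigp1 at 58.7 CPM against 2.75 and 71.2 against 8.24. Of the Ifi200 family of DNA-binding proteins, 11 of 11 were higher, from Aim2, a DNA sensor kept in this list, at 2.49-fold and 2.06-fold to Ifi206 at 19.8-fold and 10.8-fold. Of the Schlafen genes, 5 of 6 were higher, with Slfn5 at 6.56-fold and 5.32-fold, and Slfn2 missed the size limit at 1.40-fold and 1.25-fold. Reads of near-identical Ifi200, Oas1, Phf11, Trim30 and Schlafen genes may have been split between copies.

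**Figure D2:**
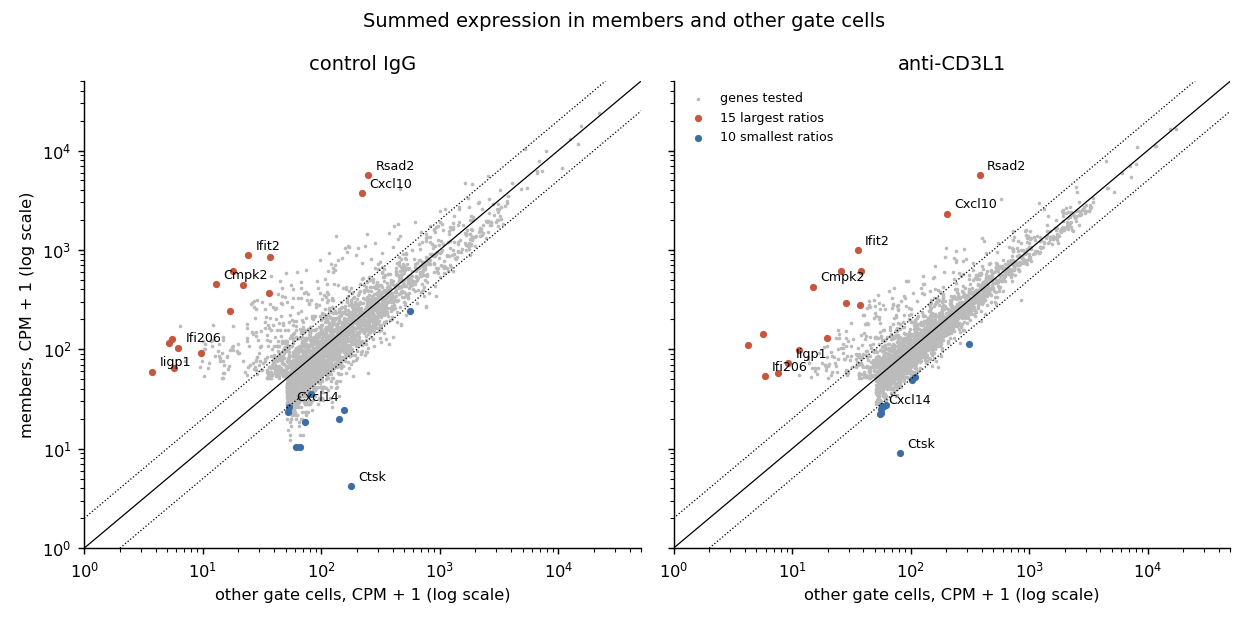
CPM plus 1 of each tested gene in members (vertical, log scale) against other gate cells (horizontal, log scale), one panel per library, with the line of equality and dotted lines at 2-fold. The 15 highest-ranked genes in red, such as Rsad2 at 5672 against 249 CPM in the control, lie far above the lines, and the 10 that ranked lowest, in blue, lie below.

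The machinery that receives and relays the signal varied by its parts. Of the receptors and kinases, 0 of 7 tested genes were at least 2-fold higher or lower in both libraries, which with so few genes is close to the shares over all genes, 6.35% and 0.476%. Ifnar1 was at 141 CPM in members and 147 in other gate cells of the control, and at 134 and 134 after anti-CD3L1. Ifngr1, the interferon gamma receptor chain, was lower in members, at 39.6 against 131 and 89.8 against 155. Of the transcription factors, 6 of 12 were higher in both, among them Irf7, the amplifier of the type I response, at 1431 against 240 CPM and 1327 against 396, and Stat2 at 9.67-fold and 4.22-fold. Irf9, the DNA-binding partner of Stat2, was at 1.96-fold and 1.40-fold.

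Of the nucleic acid sensors, 6 of 11 tested genes were at least 2-fold higher in both libraries, against 6.35% of all tested genes. The RNA sensors Ddx58 (RIG-I), at 8.54-fold and 6.47-fold, and Ifih1 (MDA5), at 5.36-fold and 2.65-fold, were among them, as was the Z-nucleic acid sensor Zbp1 at 5.54-fold and 3.14-fold. Tmem173 (STING) was at 1.89-fold and 1.21-fold. The cells held little type I interferon RNA. Ifnb1 had 1 UMI in control members and 11 in anti-CD3L1 members, 1.59 and 7.32 CPM, against 0.698 and 1.67 CPM in the other gate cells. The log2 ratios of members over others were 1.18 (-4.21 to 3.88) in the control and 2.13 (1.05 to 3.08) after anti-CD3L1. All 13 Ifna genes listed had 0 UMIs in both, against a floor of 3 counts that stands at 4.755 CPM and 1.996 CPM per gene. The negative regulators held 2 of 9 genes higher in both libraries, Usp18 and Socs1, the latter at 3.03-fold and 2.28-fold. With so few genes and a share of 6.35% over all tested genes, this count is not read as a result about the list.

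Some of the interferon gamma targets are also in the lists of chemokines, MHC class I and others. Of these targets, 5 of 15 tested genes were at least 2-fold higher in both libraries, against 6.35% of all tested genes. They were Cxcl9, Cxcl10, Socs1, Serpina3g and Tap1, and the list's median log2 ratio was 1.43 in the control and 0.86 after anti-CD3L1.

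Chemokines were mixed. Of 13 tested, 6 were at least 2-fold higher in members in both libraries, against 6.35% of all tested genes, and 0 were at least 2-fold lower in both. Cxcl10, which attracts cells with Cxcr3, was at 3727 against 219 CPM in the control and at 2304 against 201 after anti-CD3L1. Cxcl9, a second Cxcr3 ligand, was at 171 against 17.1 and at 253 against 98.8, but its control UMIs came from 8 of 57 members, with 36.1% from 1 cell. The monocyte attractants Ccl2, at 5.72-fold and 2.16-fold, Ccl7, at 5.21-fold and 2.61-fold, and Ccl12, at 14.8-fold and 3.97-fold, were higher too. Cxcl1 was lower in members, at 471 against 777 CPM in the control and 310 against 851 after anti-CD3L1. The neutrophil attractant Cxcl2 was at 7927 against 6860 in the control and at 5355 against 7205 after anti-CD3L1. Il15, a growth factor of NK cells, was at 258 against 40.7 and at 257 against 42.0 CPM, and the death ligand Tnfsf10 (TRAIL) was 29.9-fold and 11.6-fold higher at low levels of 79.3 and 39.9 CPM in members.

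The branches of antigen presentation are given apart. Of MHC class I genes, 2 of 11 tested were at least 2-fold higher in both libraries, against 6.35% of all tested genes. With so few genes this count is not read as a result about the list. The 2 were the peptide transporter Tap1 and Nlrc5, the transactivator of class I genes. The list's median log2 ratio was 1.31 in the control and 0.39 after anti-CD3L1. Of MHC class II genes, 0 of 5 were at least 2-fold higher in both libraries, close to the share over all genes. Their median log2 ratio was -0.0034 in the control and -0.54 after anti-CD3L1. H2-Aa was at 736 against 737 CPM in the control and at 1763 against 2612 after anti-CD3L1.

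**Figure D3:**
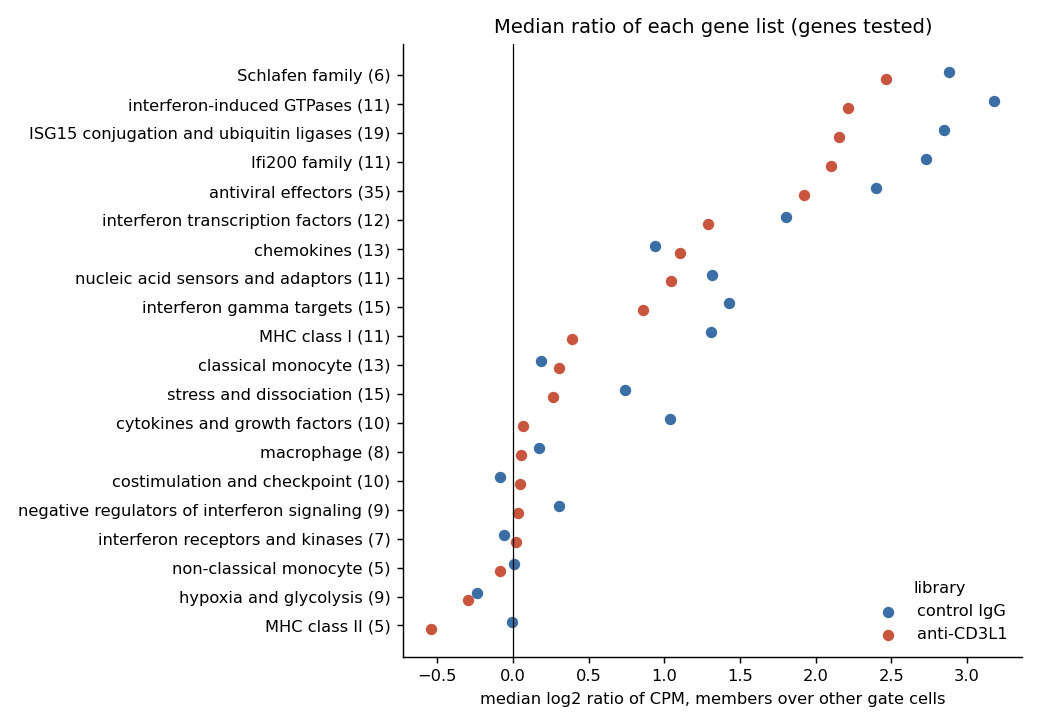
Median log2 ratio of CPM in members over other gate cells (horizontal axis) for each gene list (vertical axis, with the number of genes tested), as blue points for control IgG and red points for anti-CD3L1. The lists of antiviral effectors, ISG15 conjugation, Ifi200, Schlafen and GTPase genes lie between 1.92 and 3.18, the receptors and kinases near 0, MHC class II at or below 0, and the interferon gamma targets at 1.43 and 0.86.

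Some classical monocyte genes were higher in the members and others were not. Ly6c2 was at 1481 against 374 CPM in the control and at 1269 against 726 after anti-CD3L1, though reads may be split with its copy Ly6c1. Plac8 was at 4673 against 1648 and at 2574 against 1341. Of the classical monocyte list, Gpr141 was at least 2-fold higher in both libraries, at 228 against 62.9 CPM and 179 against 70.5, and Fn1, the matrix protein fibronectin, was at least 2-fold lower, at 222 against 513 and 190 against 389. Ccr2 differed little, at 1.14-fold and 1.01-fold.

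The 10 genes that ranked lowest against the other gate cells were Ctsk, St18, Myo1e, Nolc1, Rsl1d1, Nop58, C1qbp, Ppp1r14b, Arhgap18 and Cxcl14. The 15 genes lower in both libraries became 4 with a filter of 100 CPM, 7 with scaling by the median ratio, 64 with a filter of 20 CPM, 33 without cells that held markers of another type, 67 with an interferon limit of 0.2% and 89 with free RNA subtracted. Cathepsin K, a protease, had 2 UMIs in control members, 3.17 against 176 CPM with a log2 ratio of -5.79 (-8.84 to -3.94), and was at 7.98 against 80.1 after anti-CD3L1. St18 was at 19.0 against 141 and at 21.96 against 54.8 CPM, and Myo1e, a myosin, at 239 against 560 and at 111 against 309. Nolc1, Nop58 and Rsl1d1 were at 22.2 against 51.3, 9.51 against 60.0 and 9.51 against 64.6 CPM in the control, and at 21.3 against 53.8, 25.9 against 58.5 and 26.6 against 60.9 after anti-CD3L1. These 3 rested on 14, 6 and 6 UMIs in control members. Nrp2, the receptor named above as the partner of CD3L1, was at 111 against 375 CPM in the control and at 196 against 316 after anti-CD3L1, or 3.38-fold and 1.61-fold lower, so it passed the size limit in the control library alone. Itpripl1, the gene of CD3L1, had 0 and 5 UMIs in members.

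When all gate cells were ordered by the share of the 3 rule genes, the differences were graded. In the control, Isg15 stood at 215 CPM in the 1341 cells without a rule UMI, at 858 in cells up to 0.02%, 1805 up to 0.05%, 2950 up to 0.1%, 4124 up to 0.2% and 3938 in the 18 cells above. After anti-CD3L1 it was 391, 697, 1287, 2015, 2757 and 4244 CPM. Rsad2 ran from 62.6 to 8036 CPM in the control and from 174 to 9484 after anti-CD3L1. Both genes thus climbed through cells below the limit as well, with 1 step down for Isg15 at the top of the control. Ly6c2 rose from 235 to 1779 CPM in the control and from 671 to 1380 after anti-CD3L1, and Nrp2 fell from 410 to 124 CPM and from 328 to 220 between the lowest and highest groups. These groups were cut by the rule's own measure, and genes per group are sums over cells of 1 library.

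**Figure D4:**
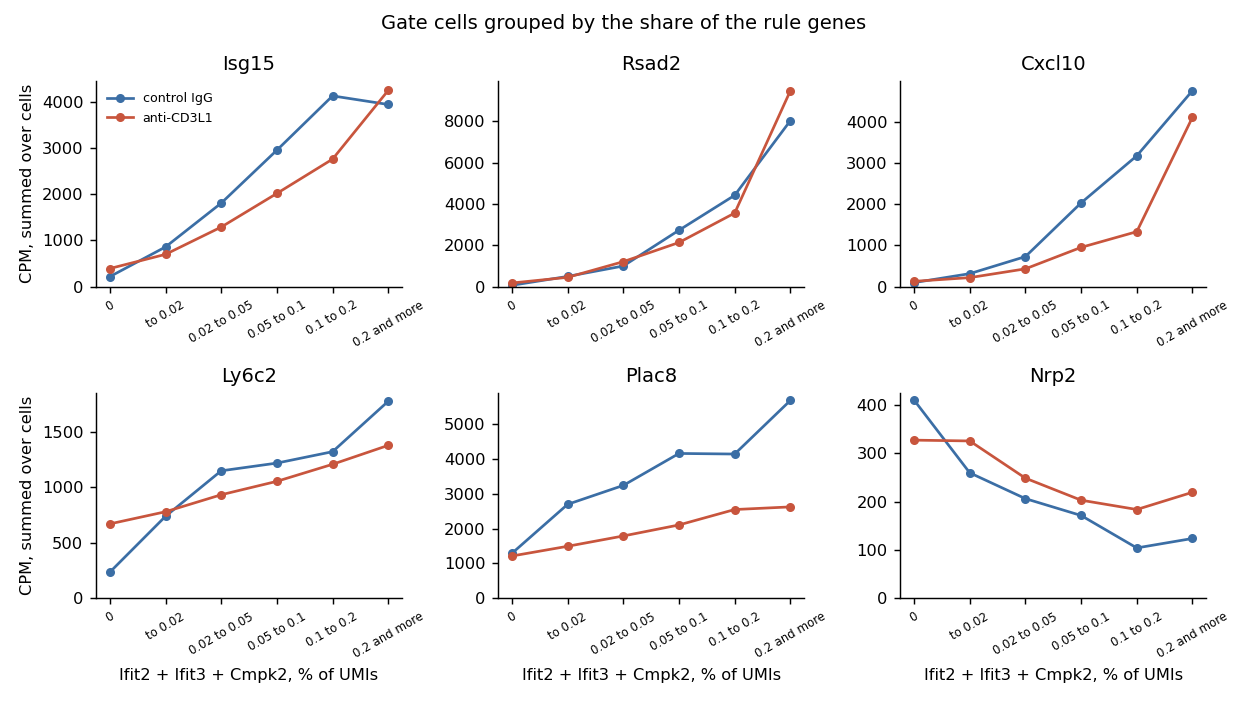
CPM summed over gate cells grouped by the percent of UMIs from Ifit2, Ifit3 and Cmpk2 (horizontal axis), for 6 genes, in blue for control IgG and red for anti-CD3L1. Isg15, Rsad2, Cxcl10, Ly6c2 and Plac8 stand higher and Nrp2 lower in the groups past 0.1%, the members, than in cells without a rule UMI.

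Members also varied among themselves. The summed share of 95 interferon target genes outside the rule ran from 2.81% of UMIs in the lowest to 9.07% in the highest control member, with a median of 6.07%, and from 2.02% to 9.26% with a median of 4.63% after anti-CD3L1. In the other gate cells the medians were 1.46% and 1.63%, and their highest cells reached 7.82% and 7.24%, inside the members' range. Cxcl10 took between 0% and 1.51% of a control member's UMIs, median 0.287%, and between 0% and 1.97%, median 0.143%, after anti-CD3L1. MHC class II was uneven, with a median of 0.0569% and a highest cell of 2.83% in the control, and 0.366% and 4.81% after anti-CD3L1.

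Between the libraries, the members of the anti-CD3L1 library held more MHC class II RNA. The median log2 ratio of the interferon targets was -0.27, but -0.07 with an interferon limit of 0.2% and 0.27 with free RNA subtracted. Its direction thus depended on the processing. Of 3268 genes with at least 50 CPM in either library, 151 (4.62%) were at least 2-fold higher after anti-CD3L1 and 104 (3.18%) at least 2-fold lower. Which direction held more genes depended on the processing, with 127 higher and 124 lower under scaling by the median ratio and 45 higher and 61 lower with a filter of 100 CPM. In the other gate cells 117 of 3410 (3.43%) were higher and 91 (2.67%) lower. Of the higher genes 42 were higher in both classes, which is 27.8% of the members' and 35.9% of the others' genes, and of the lower genes 43, or 41.3% and 47.3%. With 1 library per treatment these are descriptions of 2 libraries.

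Of the 95 interferon targets, 82 were tested, 0 were at least 2-fold higher after anti-CD3L1 and 5 were lower. Over all tested genes 4.62% were higher and 3.18% lower. By any size 64 targets were lower and 18 higher, and the counting intervals lay below 0 for 40 and above 0 for 4. The matching shares over all tested genes are not given here, so these counts are not read as particular to the targets. The targets' median log2 ratio was -0.27 in members, against 0.10 for all tested genes, and 0.33 for the same targets in the other gate cells. With an interferon limit of 0.2% it was -0.07 in members. Both sets of members passed the same limit on Ifit2, Ifit3 and Cmpk2, which conditions this comparison. Rsad2 had a log2 ratio of -0.01 (-0.07 to 0.05), Isg15 of -0.31 (-0.38 to -0.24), Irf7 of -0.11 (-0.22 to 0.01) and Cxcl10 of -0.69 (-0.77 to -0.62). So Rsad2 was level, and Cxcl10 was 1.62-fold lower. Slfn4, Slfn1, Oas1a, Oas1g and Ifitm1 were the 5 lower genes, with Slfn4 at 794 and 128 CPM and Ifitm1 at 940 and 101. Both genes were also high in the control's other S100a8/S100a9-high cells, at 681 and 6984 CPM, and in barcodes of 10 to 100 UMIs, which hold mostly free RNA, they stood at 567 and 35.8 CPM for Slfn4 and at 3501 and 138 for Ifitm1. The part of this RNA in the 2 falls was not tested. When a free-RNA profile was subtracted the median turned to 0.27, but that setting took 42.4% of the UMIs of anti-CD3L1 members and 2.45% of control members as free RNA.

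Of the MHC class II genes, 4 of 6 tested were at least 2-fold higher in anti-CD3L1 members, against 4.62% of all tested genes. H2-Aa was at 736 CPM in the control and 1763 after anti-CD3L1 (log2 ratio 1.26, 1.12 to 1.41), H2-Ab1 at 613 and 1572, and H2-Eb1 at 455 and 1162. Cd74, the class II chaperone, was at 1994 and 3806, a log2 ratio of 0.93. In the other gate cells all 7 tested class II genes were at least 2-fold higher, against 3.43% of all genes tested there. Their median log2 ratio was 1.84 there against 1.31 in members, so class II genes stood higher after anti-CD3L1 in both classes. Free RNA moved the same way, with H2-Aa at 475 and 2359 CPM and Cd74 at 1016 and 4174 in barcodes of 10 to 100 UMIs, and its part in the members' difference was not tested.

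Most of the 10 largest rises were also at least 2-fold in the other gate cells. Lpl, lipoprotein lipase, had 0 UMIs in control members and 139 after anti-CD3L1, at least 19.5-fold higher when the 0 is set to a floor of 3 counts in the library. Pparg, the lipid-sensing nuclear receptor, had 3 and 79 UMIs, a log2 ratio of 3.47 (1.87 to 5.78), and Cd36, a fatty acid scavenger receptor, had 4 and 93. In the other gate cells the log2 ratios were 2.16 for Lpl, 1.48 for Pparg and 2.47 for Cd36. In barcodes of 10 to 100 UMIs they were higher after anti-CD3L1 as well, with Lpl at 22.2 and 149 CPM, above its 92.5 in anti-CD3L1 members, Pparg at 4.56 and 34.3, Cd36 at 9.12 and 54.3, Ccl24 at 16.5 and 88.8, and Ccl6 at 87.0 and 498. The part of free RNA in these rises was not tested. The chemokines Ccl24 and Ccl6 were at 15.9 and 171 CPM and at 50.7 and 334 CPM. Frmd4b, Fam20c and the transcript 4930523C07Rik were among them, at 8.21-fold, 7.47-fold and 9.02-fold. Hspb1, a small heat shock protein, was at 6.34 and 75.2 CPM, but 1 cell held 57.5% of its anti-CD3L1 UMIs.

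The 10 largest falls were mostly library-wide. Ly6c1 had 520 UMIs in control members and 1 after anti-CD3L1, a log2 ratio of -10.27 (-15.58 to -7.79), and over all filtered barcodes it was at 98.5 and 1.68 CPM. Mpp7 had 98 and 0 UMIs in members and was at 209 and 1.99 CPM over all barcodes, and Tpd52l1 had 45 and 0 UMIs and was at 90.3 and 0.807 CPM over all. In the other direction, BC018473 had 0 and 84 UMIs in members and 3 and 6414 over all barcodes. These 4 genes were nearly absent from all cells of 1 library, and whether the mice of the sets differed was not tested.

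Saa3, an acute-phase protein, was at 5886 and 156 CPM in members, with 1 cell giving 32.5% of its control and 77.4% of its anti-CD3L1 UMIs, and at 5989 and 74.0 CPM over all barcodes. Wfdc21, Fpr1, Stfa2l1, Cstdc4 and Nos2 completed the 10 with Ifitm1, with all but Ifitm1 on 34 to 55 UMIs in control members, and single control cells held 81.1% of the Cstdc4, 66.7% of the Stfa2l1 and 52.9% of the Nos2 UMIs. Neutrophil genes moved with them: of the 15 listed genes in the files, 8 were tested and 3 were at least 2-fold lower, against 3.18% of all tested genes. In the other gate cells 4 of 8 were lower, against 2.67% of all genes tested there. The list summed to 3609 CPM in control members and 1538 after anti-CD3L1, and to 3190 and 924 in the other gate cells. Without S100a8 and S100a9, whose level the rule limits in both classes, 2 of 6 tested genes were lower, the median log2 ratio was -0.92 and the sums were 1970.3 and 953 CPM in members. Acod1 was its most abundant gene after anti-CD3L1, Stfa2 was at 0 there, and S100a8 and S100a9 made up 6.69% and 0.138% of the UMIs in barcodes of 10 to 100 UMIs. The part of neutrophil RNA in these falls was not tested.

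Among secreted factors, Il1b was at 4673 CPM in control members and 1558 after anti-CD3L1, a log2 ratio of -1.58 (-1.66 to -1.51). It was at 4068 and 2368 CPM in the other gate cells and at 4725 and 1521 in barcodes of 10 to 100 UMIs, nearly the members' own levels, and the part of free RNA in the fall was not tested. Il1a, Osm and Vegfa were at least 2-fold lower too, making 4 of 10 cytokines and growth factors, against 3.18% of all tested genes. In the other gate cells 0 of 9 were, where 2.67% of all tested genes were, and whether the classes differed was not tested. Of 15 chemokines, Ccl6, Ccl8, Ccl9 and Ccl24 were at least 2-fold higher and Ccl12 was lower, at 542 and 210 CPM. Over all tested genes 4.62% were higher and 3.18% lower. In the other gate cells 5 of 15 chemokines were higher and 1 lower, against 3.43% and 2.67% of all genes tested there. For Ccl8, which had 12 UMIs in control members, 1 cell held 41.4% of the 157 anti-CD3L1 UMIs. Mrc1, the mannose receptor, was at 28.5 and 78.5 CPM, on 18 control UMIs from 7 cells. It was at 64.1 and 144 CPM in the other gate cells and at 37.1 and 125 in barcodes of 10 to 100 UMIs. The part of free RNA in the rise of Mrc1 was not tested. The checkpoint ligand Cd274 (PD-L1) was at 678 and 511 CPM and Cd86 at 426 and 636. Nrp2 was at 111 and 196 CPM, a log2 ratio of 0.82 (0.44 to 1.22), and at 375 and 316 in the other gate cells, where the log2 ratio was -0.25, while Nrp1 was at 46.0 and 103 CPM in members. The difference between the classes was not tested.

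**Figure D5:**
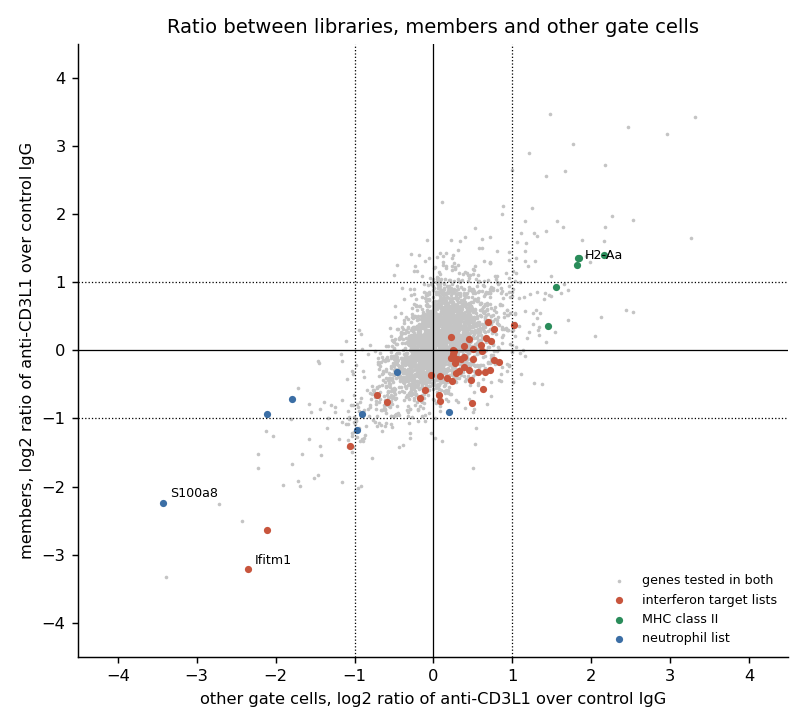
Log2 ratio of CPM, anti-CD3L1 over control IgG, in members (vertical) against other gate cells (horizontal) for 2997 genes tested in both, of which 7 lie outside the axes or have no ratio because a class had 0 UMIs, with dotted lines at 2-fold. MHC class II genes (green) lie high in both classes, neutrophil genes (blue) below 0 in members, and most interferon targets (red) at or below 0 in members and above 0 in other gate cells.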

How the data were processed

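The deposited counts were UMIs per gene and barcode, raw and not normalized; the authors made them with Cell Ranger 7.1.0, and the submitters' processing notes also name GRCm39 and Seurat 5.1.0. The mapping settings are not given in the sources used here. A deposited list of the authors' own comparison was not used. The control IgG matrix held 74850604 UMIs over 1084690 barcodes and the anti-CD3L1 matrix 108246719 over 1548857. Filters followed the study, with the minimum of 500 UMIs added. UMIs were summed per class and library and given as CPM. Ratios carry exact binomial 95% intervals for counting error only. Genes were counted by size, at least 2-fold with at least 50 CPM, because 1 library per treatment allows no test. Doublets were not removed in the values reported, and leaving out high scores was an alternative. Members and lists were chosen with earlier results of these data known. Named genes were the listed genes, the 15 largest and 10 smallest ratios to the other gate cells, and the 10 largest rises and falls between libraries. Of 32285 gene identifiers 32158 were in GENCODE M21, and promoter windows came from RefSeq on GRCm38.p6, a build other than that named for the counts. Python 3.11.15, numpy 2.4.6, scipy 1.17.1, pandas 2.3.3 and scanpy 1.11.5 were used, and ratios and thinning were tested on simulated data. Some genes of the lists are not reported here by name.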

Additional observations from a re-analysis of the deposited data

Results flagged for a closer look

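Of 298 named or listed genes, 2 differed between libraries by at least 2-fold in opposite directions in members and in the other gate cells, and the median of the interferon targets also had opposite signs. With smaller sizes included, counting intervals lay on opposite sides of 0 for 53 genes, 46 of them below 0 in members and above 0 in the other gate cells, and 7, Nrp2 among them, the other way. The named and listed genes hold many interferon targets, and no share over all genes is given here. These counts thus describe the chosen genes only. None of these differences was tested. Taking ratios as anti-CD3L1 to control, the interferon target genes had a median log2 value of -0.27 in members and 0.33 in the other gate cells. Ctsk had a log2 ratio of 1.33 (-0.83 to 4.53) in members, on 2 and 12 UMIs, and -1.14 in the other gate cells. Sparc, a fibroblast marker, had a log2 ratio of -1.99 (-4.68 to 0.37) in members and 2.72 in the other gate cells. Ctsk and Sparc reached 50 CPM only in the other gate cells, so neither counts as a 2-fold difference in members. Their intervals in members include 0.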

How the results depend on the processing

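Across 13 alternatives, 65 of 95 recomputed values stayed within the counting interval or within 1.5 times the count, and 1 reversed: the median log2 ratio of the interferon targets between libraries turned from -0.27 to 0.27 with free RNA subtracted. That setting scaled the profile of barcodes of 10 to 100 UMIs until S100a8 and S100a9 fell to 0, which took 42.4% of anti-CD3L1 member UMIs and 2.45% of control member UMIs. Values that moved follow, together with the targets' median of -0.07 and the counts of 127 and 124, which stayed within the limits. The cause was not tested except where the setting alone changes the cells or genes counted. With an interferon limit of 0.2%, members were 0.210% of control and 0.595% of anti-CD3L1 barcodes and 1.04% and 1.70% of gate cells, with 325 genes higher and 204 lower after anti-CD3L1 and 67 below the other gate cells, and the targets' median between libraries was -0.07. With the rule applied to cells thinned to 1000 UMIs, the shares were 0.406% and 0.958% of barcodes and 6.02% and 8.97% of gate cells, with 166 genes lower after anti-CD3L1 and 124 above the other gate cells. With at least 2 UMIs of Csf1r, members were 1.17% of anti-CD3L1 barcodes. Leaving out gate cells with 3 or more UMIs of another type's markers, mostly of the plasmacytoid dendritic cell list, gave 0.311% and 0.972% of barcodes, 3.88% of anti-CD3L1 gate cells, 286 genes higher and 195 lower after anti-CD3L1, and 33 below the other gate cells; without the plasmacytoid list and Klrk1, a setting chosen after seeing the data, 0 values moved. Free RNA subtraction gave 293 genes higher after anti-CD3L1 and 89 below the other gate cells, and scaling by the median ratio gave 7 below, with 127 higher and 124 lower after anti-CD3L1. A filter of 20 CPM gave 515 higher, 186 lower and 64 below the other gate cells, and one of 100 CPM gave 45, 61 and 4. In all 8 alternatives that recompute the shares, the member share of barcodes and of gate cells was larger in the anti-CD3L1 library. Scrublet called 0 barcodes by its own threshold, so it did not work as a caller here, and leaving out the 586 and 1016 highest scores removed 1 and 7 members. No paired analysis was possible because each treatment has 1 library, and with 57 control members the floor of 3 counts is 4.755 CPM.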

Other observations

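Genes outside the lists and the ranked sets are named here after their values were seen. Among the 200 genes above the other gate cells in both libraries were the Fc receptors Fcgr1 and Fcgr4, which bind antibody. Fcgr1 was at 1084 CPM in members against 231 in the control and 815 against 290 after anti-CD3L1, and Fcgr4 at 314 CPM in members against 74.1 in the control and 260 against 95.3 after anti-CD3L1. Slamf7, a receptor of the SLAM family, was at 204 CPM in members against 26.7 in the control and 248 against 77.6 after anti-CD3L1, and Lgals9, the lectin galectin-9, at 415 CPM in members against 92.5 in the control and 363 against 128 after anti-CD3L1. Pml, the scaffold of nuclear bodies that interferon enlarges, and Daxx, a partner of Pml in these bodies, were among the 200 as well, at 119 CPM in members against 10.7 in the control and 108 against 18.7 after anti-CD3L1 and at 255 CPM in members against 32.6 in the control and 311 against 48.4 after anti-CD3L1. All 6 stood above the other gate cells by at least 2-fold in each library, and they share the selection on interferon genes.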
